A study of Mus musculus with 5 samples.

Results

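The genes of the semaphorin, ephrin, Slit and netrin systems were followed in cultured mouse cancer-associated fibroblasts (CAFs), the fibroblasts of the tumor stroma. The set took every protein-coding gene of the count table whose symbol was a Sema3 to Sema7, Plxna to Plxnd, Epha, Ephb, Efna or Efnb gene, Nrp1 or Nrp2, Slit1 to Slit3, Robo1 to Robo4, Ntn1 to Ntn5 or Unc5a to Unc5d. It held 67 genes of the 54532 named genes in the table, of which 22046 were protein-coding. The rule itself uses symbols and biotype and no measured value.

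RNA was sequenced from 5 CAF cultures, with 1 library per condition. In 3 of them the cells had grown out of patient-derived xenografts (PDX), human rectal tumors carried under the skin of female nude mice engrafted at 5 to 6 weeks of age, and had the WT genotype. These were the untreated PDX CAFs, the control siRNA PDX CAFs, which received a scramble siRNA, and the Fn1 siRNA PDX CAFs, which received siRNA against the fibronectin gene Fn1. The other 2 cultures came from tumors in αSMA-CreERT2; R26mT/mG; myosin IIA fl/fl mice, in which Myh9, encoding the heavy chain of myosin IIA, is floxed and Cre is driven by the promoter of smooth muscle actin. The myosin IIA KO CAFs carried Cre and the Cre- control CAFs did not, and per the labels both were given 2 µM tamoxifen in culture. These hosts had been irradiated at 6 to 8 weeks of age, given donor bone marrow and injected with mouse N/p53 tumor organoids into the interscapular fat pad. The methods describe tamoxifen injections for such tumor-bearing mice with and without Cre. Whether the hosts of these 2 cultures had them, and whether they were male or female, is not stated. All 5 cultures were immortalized with SV40 and each library is 1 culture. Whether the 3 PDX cultures come from the same xenograft is not given in the sources read.

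Guidance genes are best known for steering growing axons. Semaphorins, secreted or membrane-bound, signal through plexins, for which neuropilins serve as co-receptors, and ephrins on 1 cell bind Eph receptor tyrosine kinases on its neighbour, with signals passing into both cells. Slits are secreted ligands of Robo receptors, and netrins bind Dcc, neogenin and Unc5 receptors. Outside the nervous system the same molecules set cell sorting, tissue boundaries and vessel growth, and they act on the cytoskeleton.

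The libraries held 22961620 to 26596351 counts. Levels are given as CPM (each gene's counts relative to library size, which was scaled by TMM, the trimmed mean of M values, over all 5 libraries), and a count of 0 allows up to 0.109 to 0.135 CPM (3 counts). Myh9 stood at 2420 CPM in Cre- control and 426 CPM in myosin IIA KO CAFs. Fn1 stood at 4779 CPM with control siRNA and 1283 CPM with Fn1 siRNA. Of 12 fibroblast markers, 10 were at 1 CPM or more in each PDX library and 12 in both transgenic libraries, with Lum and Fap under 1 CPM in all 3 PDX libraries. Markers of the other cells that use guidance genes most were low, Tubb3 apart. The 10 endothelial markers summed to between 6.20 and 12.5 CPM, with Emcn and Cldn5 at 0 in all libraries, the 10 immune markers to between 2.97 and 9.05 CPM, with Ptprc, Cd3e and Tyrobp at 0, and the 10 neuronal and glial markers to between 17.8 and 52.1 CPM, with Rbfox3, Snap25 and Elavl4 at 0. Tubb3 held most of the neuronal and glial sum, at 16.4 to 47.7 CPM, and S100b reached 6.88 CPM in KO CAFs. The endothelial marker Egfl7 stood at 3.40 to 5.72 CPM, and Tek at 7.85 CPM in Cre- control and 7.38 CPM in KO CAFs. The immune marker Csf1r reached 5.61 CPM in KO CAFs. The 10 epithelial markers summed to between 4.44 and 12.6 CPM, most of it from Krt19 (3.58 to 12.3 CPM). In these bulk libraries, fewer cells of a type and less RNA per cell cannot be told apart.

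No condition was sequenced more than once, so there is no replicate error and no test between conditions was possible. Differences are therefore given as log2 ratios of scaled counts with a 95% interval that covers counting error only, and 2-fold, the fold threshold of the study's methods, serves to count them.

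For the members on which the comparisons turned, the 250 bases before the RefSeq transcript start are shown from the GRCm38.p6 table, 5′ to 3′ on the strand of the gene. They are Ntn4 (chr10:93640799-93641048, plus strand), Sema3a (chr5:13396534-13396783, plus strand) and Sema3d (chr5:12382916-12383165, plus strand), which were lower in myosin IIA KO CAFs, and Unc5b (chr10:60831582-60831831, minus strand) and Sema7a (chr9:57939862-57940111, plus strand), which were higher with control siRNA than in untreated PDX CAFs. Capitals mark the GC box GGGCGG, the letters bound by Sp1 factors, on either strand.
Ntn4: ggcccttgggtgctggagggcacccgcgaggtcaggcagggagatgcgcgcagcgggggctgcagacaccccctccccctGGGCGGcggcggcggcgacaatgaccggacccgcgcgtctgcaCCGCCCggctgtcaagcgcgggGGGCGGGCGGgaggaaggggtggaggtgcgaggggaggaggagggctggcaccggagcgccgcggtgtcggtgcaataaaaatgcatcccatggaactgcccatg
Sema3a: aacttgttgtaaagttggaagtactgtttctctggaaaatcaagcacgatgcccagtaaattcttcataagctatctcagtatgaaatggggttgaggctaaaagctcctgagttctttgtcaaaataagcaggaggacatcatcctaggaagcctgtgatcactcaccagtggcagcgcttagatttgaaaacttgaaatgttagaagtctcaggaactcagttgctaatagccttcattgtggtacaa
Sema3d: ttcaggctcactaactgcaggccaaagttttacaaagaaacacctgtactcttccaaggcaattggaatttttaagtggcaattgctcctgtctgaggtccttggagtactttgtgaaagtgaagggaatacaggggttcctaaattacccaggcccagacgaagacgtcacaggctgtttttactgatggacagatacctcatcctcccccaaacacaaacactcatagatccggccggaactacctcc
Unc5b: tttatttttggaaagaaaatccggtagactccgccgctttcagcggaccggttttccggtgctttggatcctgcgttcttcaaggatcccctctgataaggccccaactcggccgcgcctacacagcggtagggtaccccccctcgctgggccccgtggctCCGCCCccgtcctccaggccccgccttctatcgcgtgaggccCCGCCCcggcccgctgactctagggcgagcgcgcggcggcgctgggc
Sema7a: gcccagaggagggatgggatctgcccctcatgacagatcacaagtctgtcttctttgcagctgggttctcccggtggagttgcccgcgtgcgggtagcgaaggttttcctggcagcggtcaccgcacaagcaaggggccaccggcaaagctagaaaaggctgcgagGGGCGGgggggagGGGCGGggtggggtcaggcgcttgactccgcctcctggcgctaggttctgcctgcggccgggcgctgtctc
The sequences fall into 2 kinds. Ntn4 had 73.2% G and C with 4 GC boxes, 2 of them overlapping, Unc5b had 66.8% with 2 and Sema7a 66.4% with 2, whereas Sema3a had 40.8% and Sema3d 46.8% with none. The Sema3a window starts at base 13396534, far inside the gene as counted, which starts at 13125414. That of Ntn4 starts at 93640799, just inside its gene, which starts at 93640681. The Sema3d window ends before the start of its gene as counted, and no GENCODE transcript covers the bases just after it. The bases just after the Sema3a window do lie in a GENCODE transcript, as for Ntn4, Unc5b and Sema7a. How certain each start is was not tested, and the 2 kinds may reflect which start was used. Other starts of these genes were not examined. Of 67 members, 58 matched 74 promoters in the table, and 52 of these (70.3%) held a GC box, against 32.7% of all 32851 promoters. The TEAD motif GGAATG was in 7 member promoters and 12.6% of all, and the AP-1 motif TGANTCA in 3 and 6.75%, counted on both strands, each motif on its own so that matches may overlap. None of the 5 promoters shown held either. GC boxes were added to the search after the others had given no match in these 5, and a match is a description of letters, not a binding site.

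Most guidance genes were transcribed in every culture. Of the 67 members, 50 were at 1 CPM or more in untreated, 46 in control siRNA, 47 in Fn1 siRNA, 49 in Cre- control and 50 in myosin IIA KO CAFs, or 68.7 to 74.6% of members beside 52.2 to 53.4% of all protein-coding genes. In all, 44 members were at 1 CPM or more in every library, 9 in some libraries and 14 in none. The members under 1 CPM everywhere were Epha3, Epha8, Plxnb3, Robo2, Robo3, Robo4, Ntn5, Sema4f, Sema5b and Sema6a, and Epha5, Epha6, Epha10 and Unc5d, which had no count in any library. Robo4, a receptor of endothelial cells, had counts only in myosin IIA KO CAFs (0.0724 CPM). The members' summed level was 2679 CPM in untreated, 3262 CPM in control siRNA, 3403 CPM in Fn1 siRNA, 3390 CPM in Cre- control and 3673 CPM in myosin IIA KO CAFs.

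**Figure D1:**
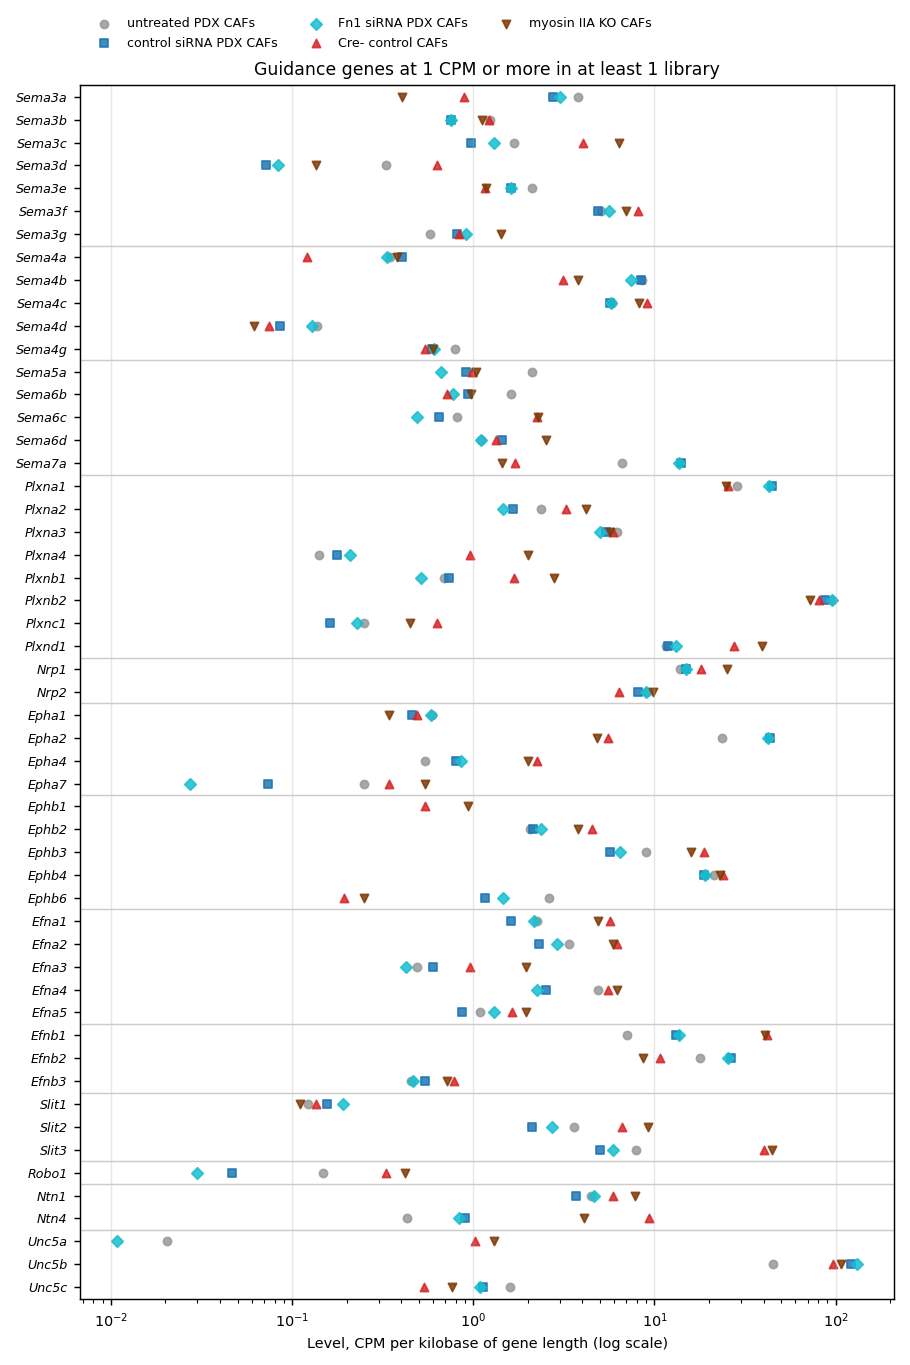
Level of the 53 guidance genes that reached 1 CPM in any library, in CPM per kilobase of gene length on a log axis, with 1 symbol per library and lines between families. Unc5b and Plxnb2 lie farthest right, the genes spread over several orders of magnitude, and values of 0 (Ephb1 in the 3 PDX libraries, Unc5a with control siRNA) are not drawn.

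Compared per kilobase of gene length, receptors led by mean level. The highest mean level over the 5 libraries was that of Unc5b, a netrin receptor with a death domain (ENSMUSG00000020099, chromosome 10 from 60762593 to 60831581, mm10), at 100.5 CPM per kilobase. It was followed by Plxnb2, a receptor of class 4 semaphorins (ENSMUSG00000036606, chromosome 15 from 89155549 to 89180788), at 86.2, Plxna1 at 33.2, Epha2 at 24.0, the ligand Efnb1 at 23.3, Ephb4 at 21.2, the ligand Slit3 at 20.8 and Plxnd1 at 20.6 CPM per kilobase. The order of the first pair was not the same in all libraries. In untreated PDX CAFs Plxnb2 stood at 95.4 and Unc5b at 44.9 CPM per kilobase, while with control siRNA they stood at 87.5 and 122 CPM per kilobase. The range of Plxna1 over the libraries (24.8 to 44.5) overlapped that of Epha2 (4.81 to 43.6). From Epha2 to Plxnd1 the ranges overlapped too, so these neighbours are not ordered beyond their spread over conditions. In Cre- control and KO CAFs the ligands Efnb1 (41.9 and 40.8) and Slit3 (40.3 and 44.8) stood above Plxna1 (25.4 and 24.8). So did Plxnd1 (27.3 and 39.3).

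The secreted ligands Slit3 and Slit2 stood above the Robo receptors in every library. Slit3 stood at 47.8 CPM in untreated, 30.4 CPM in control siRNA, 36.0 CPM in Fn1 siRNA, 244 CPM in Cre- control and 272 CPM in myosin IIA KO CAFs. Slit2 stood in the same order at 91.0, 53.6, 69.1, 169 and 233 CPM. Both were higher in the 2 transgenic libraries than in any PDX library. The 4 Robo receptors together summed to 2.59 CPM in untreated, 1.39 CPM in control siRNA, 0.947 CPM in Fn1 siRNA, 5.74 CPM in Cre- control and 7.46 CPM in myosin IIA KO CAFs, most of it from Robo1 in each library. Per kilobase, the 3 Slit genes summed to between 7.27 and 54.1 CPM and the 4 Robo genes to between 0.0841 and 0.501 CPM. Slit2 is a long gene (25433 bases). In the PDX libraries it stood at 2.11 to 3.58 CPM per kilobase, below the secreted ligands Sema3f (4.88 to 5.63) and Ntn1 (3.69 to 4.63).

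The netrin system was likewise uneven between ligand and receptor. Ntn1, the founding netrin, stood at 28.1 CPM in untreated, 23.2 CPM in control siRNA, 29.1 CPM in Fn1 siRNA, 37.0 CPM in Cre- control and 48.9 CPM in myosin IIA KO CAFs. Unc5b stood in the same order at 281, 765, 825, 606 and 667 CPM, lowest in untreated PDX CAFs. Dcc, the attractive netrin receptor, had no count in any library. Its relative Neo1, neogenin, stood at 181 CPM in untreated, 243 CPM in control siRNA, 279 CPM in Fn1 siRNA, 453 CPM in Cre- control and 517 CPM in myosin IIA KO CAFs. Unc5c was the other Unc5 receptor above 1 CPM in all libraries, at 10.2 to 30.5 CPM.

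Semaphorins were spread over many genes at moderate levels. The 7 class 3 genes, which are secreted, summed to between 11.9 and 17.6 CPM per kilobase, the 6 class 4 genes to between 13.0 and 15.6, and the 7 genes of classes 5 to 7 to between 7.02 and 18.0. Their receptors were above them, with the 9 plexins summing to between 145 and 159 CPM per kilobase and the 2 neuropilins to between 22.8 and 34.9. Sema3f, a neuropilin 2 ligand, stood at 25.4 to 42.0 CPM, Sema4c and Sema4b, ligands of the membrane-bound class 4, at 26.0 to 41.7 CPM and 17.6 to 48.1 CPM, and Sema6d at 11.6 to 26.5 CPM. Nrp1, which also binds VEGF, ranged from 135 CPM in untreated to 246 CPM in myosin IIA KO CAFs.

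Among ephrin-B ligands and Ephb receptors, Efnb1, Efnb2, Ephb2, Ephb3 and Ephb4 were at over 20 CPM in every library, and Efnb3, Ephb1 and Ephb6 were at under 10 CPM in every library. Efnb2 stood at 123 CPM in untreated, 180 CPM in control siRNA, 175 CPM in Fn1 siRNA, 73.4 CPM in Cre- control and 59.4 CPM in myosin IIA KO CAFs. Its receptor Ephb4 varied little, from 87.2 to 111 CPM. Of the 9 Epha genes, Epha2, Epha4, Epha7 and Epha1 were at 1 CPM or more in some library, and Epha1 (1.34 to 2.33 CPM) shares 6.01% of its exon bases with Zyx, which stood at 400 to 936 CPM. Since no source read here says whether counting used strand, reads of these 2 genes cannot be told apart there. The 5 ephrin-A genes summed to 16.9 to 44.2 CPM, led per kilobase by Efna4, Efna2 and Efna1.

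The comparison of myosin IIA KO with Cre- control CAFs sets cells with deletion of this contractile myosin beside cells without Cre. The cultures came from different mice, so deletion cannot be told apart from differences between mice, tumors and cultures. The secreted ligands Sema3d, Sema3a and Ntn4 were the members over 2-fold lower in the knockout. Plxna4, Sema4a and Efna3 were the members over 2-fold higher in it. Of 50 members compared (1 CPM or more in either library), 3 were over 2-fold higher and 3 over 2-fold lower, 6% each way, where 3.28% of all 13277 genes compared were over 2-fold higher and 1.69% lower. The median log2 ratio of the members was 0.10, beside -0.0054 for all genes, with 28 members above 0 and 22 below.

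Sema3d (ENSMUSG00000040254, chromosome 5 from 12383385 to 12588948), a secreted class 3 semaphorin, stood at 5.44 CPM in Cre- control and 1.16 CPM in myosin IIA KO CAFs (142 and 32 counts), a log2 ratio of -2.21 (95% interval -2.83 to -1.67). Sema3a, the prototype repellent that acts through neuropilin 1 (ENSMUSG00000028883, chromosome 5 from 13125414 to 13602565), stood at 12.3 and 5.61 CPM, a log2 ratio of -1.13 (-1.42 to -0.85). Ntn4, a netrin that binds laminin in basement membranes (ENSMUSG00000020019, chromosome 10 from 93640681 to 93747207), stood at 34.7 and 15.2 CPM, a log2 ratio of -1.19 (-1.36 to -1.02). The counting intervals of Sema3d and Ntn4 lay wholly beyond 2-fold and that of Sema3a did not. The lower class 3 genes were not the whole class. Sema3c stood at 28.9 and 45.7 CPM, a log2 ratio of 0.66 (0.53 to 0.79), Sema3g had a log2 ratio of 0.76 (0.40 to 1.14) and Sema3b, Sema3e and Sema3f had log2 ratios of -0.22 to 0.01.

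On the receptor side, Plxna4, which receives class 3 semaphorins (ENSMUSG00000029765, chromosome 6 from 32144268 to 32588192), stood at 13.6 CPM in Cre- control and 28.3 CPM in myosin IIA KO CAFs, a log2 ratio of 1.06 (0.88 to 1.25). The neuropilins were higher in the knockout by less, with log2 ratios of 0.48 (0.43 to 0.54) for Nrp1 and 0.61 (0.53 to 0.69) for Nrp2. Plexins did not lean one way. Plxnb1 had a log2 ratio of 0.75 (0.57 to 0.92) and Plxnd1, the Sema3e receptor, one of 0.52 (0.47 to 0.57), while Plxnb2 had -0.16 and Plxnc1 -0.50, and 4 of 8 plexins lay above 0. The other 2 members over 2-fold higher were low: Sema4a had 17 and 57 counts in Cre- control and KO CAFs (log2 ratio 1.64, 0.86 to 2.54), and Efna3 stood at 2.33 and 4.78 CPM (1.03, 0.58 to 1.50).

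Beneath 2-fold, some small families lay on one side of 0 and others were mixed. All 3 Efnb genes lay below 0 (-0.30 to -0.04), and of 4 Ephb receptors 3 lay below 0, with Ephb1 at 0.79 (0.44 to 1.17). The counting intervals of Efnb1 (-0.10 to 0.03), Efnb3 (-0.65 to 0.40) and Ephb4 (-0.13 to 0.02) included 0. With library totals the members' median was 0.17, not 0.10, so the side of 0 of the smallest ratios depends on the scaling. All 3 Unc5 genes compared lay above 0 (0.14 to 0.52), though the interval of Unc5a (-0.01 to 0.72) included 0. So did both Slit genes compared, Slit2 at 0.46 (0.41 to 0.52) and Slit3 at 0.15 (0.11 to 0.20), and Robo1 at 0.34 (0.02 to 0.66). Of 5 Efna genes 3 lay above 0, of 4 Epha genes 1 and of 7 Sema3 genes 3. Apart from Efna3, Sema3a and Sema3d, none of these passed 2-fold, and the spread between like cultures is not known. Adipocyte markers differed between the same 2 libraries, with 8 of 9 over 2-fold higher in the KO library and a summed level of 1106 CPM in Cre- control and 3824 CPM in KO CAFs, and none of the 9 at 0 in either. Of 12 fibroblast markers, Acta2 (7730 and 3386 CPM) and Lum (2.79 and 1.30 CPM) were over 2-fold lower. Of 10 skeletal muscle markers 3 were compared, with 2 over 2-fold lower and 1 higher, and the 10 summed to 88.3 CPM in Cre- control and 37.4 CPM in KO CAFs, with Myod1, Myog, Myf5, Ckm and Mymk at 0 in both. Acta1 made most of both sums (85.4 and 32.7 CPM), and the marker that was higher was Des (1.72 and 4.05 CPM). Their part in the guidance gene differences was not tested.

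**Figure D2:**
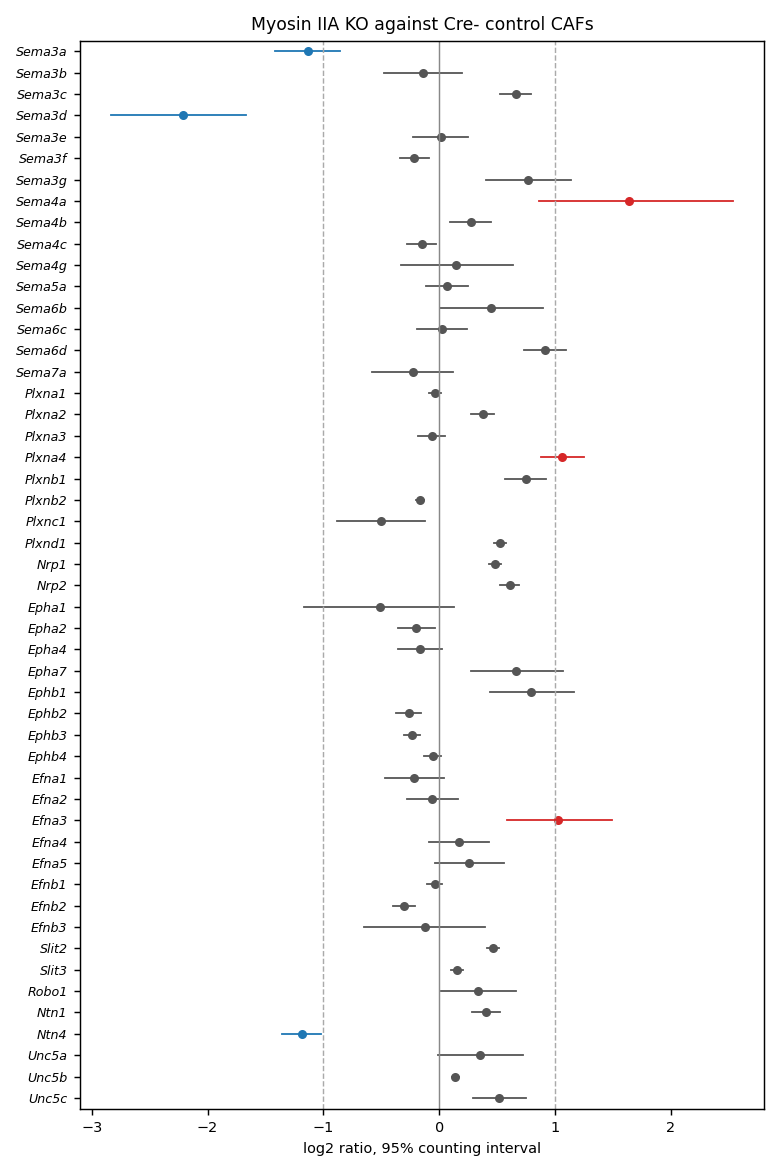
Log2 ratio of myosin IIA KO against Cre- control CAFs for the 50 guidance genes compared, with 95% counting intervals, solid line at 0 and dashed lines at 2-fold. Sema3d, Ntn4 and Sema3a (blue) lie below -1, Sema4a, Plxna4 and Efna3 (red) lie above 1, and 44 genes (gray) lie between.

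The comparison of Fn1 siRNA with control siRNA sets PDX CAFs with less Fn1 RNA beside PDX CAFs given the scramble siRNA. Fn1 RNA was lowered and not absent (1283 beside 4779 CPM), and these libraries do not measure protein. No guidance gene differed by over 2-fold. Of 47 members compared, 0 were higher and 0 lower by that measure, where 0.525% of all 12963 genes compared were over 2-fold higher and 0.37% lower, so a count of 0 is near that background. The median log2 ratio was 0.03 for members and -0.0029 for all genes. The farthest from 0 were Efna5 at 0.57 (0.17 to 0.99), from 3.50 to 5.27 CPM, and Plxnb1 at -0.52 (-0.87 to -0.17), from 7.04 to 4.96 CPM.

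Beneath 2-fold, 3 groups lay on one side of 0 in the knockdown. All 5 genes compared of semaphorin classes 5 to 7 lay below 0, with Sema5a at -0.47 (-0.69 to -0.25) and Sema6d at -0.39 (-0.62 to -0.16). All 3 Slit genes lay above 0, with Slit2 at 0.35 (0.25 to 0.46) and Slit3 at 0.23 (0.09 to 0.37). All 4 Ephb genes also lay above 0, with ratios of 0.0040 to 0.31. The genes with the highest levels differed little, Unc5b by 0.10 (0.07 to 0.12), Plxnb2 by 0.11 (0.08 to 0.14) and Plxna1 by -0.06 (-0.10 to -0.02).

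Control siRNA against untreated PDX CAFs sets transfected beside untransfected cells. It shares the control siRNA library with the knockdown comparison, so the 2 sets of values are not independent. Unc5b, Sema7a and Ntn4 were the members over 2-fold higher with control siRNA, and Sema3d, Sema5a, Epha7, Ephb6 and Robo1 were over 2-fold lower. Of 50 members compared, 3 were over 2-fold higher and 5 over 2-fold lower, or 6% and 10%, where 2.97% of all 13078 genes compared were over 2-fold higher and 2.73% lower. The median log2 ratio was -0.24 for members and -0.014 for all genes, with 32 of 50 members below 0.

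Unc5b stood at 281 CPM in untreated and 765 CPM in control siRNA PDX CAFs, a log2 ratio of 1.44 (1.40 to 1.48), and its interval lay wholly beyond 2-fold. Sema7a, a GPI-anchored semaphorin that binds integrins and plexin C1 (ENSMUSG00000038264, chromosome 9 from 57940112 to 57962865), stood at 21.9 and 46.4 CPM, a log2 ratio of 1.08 (0.93 to 1.24). Ntn4 was over 2-fold higher too at 1.61 and 3.39 CPM (1.06, 0.51 to 1.66). These 2 intervals reached below 2-fold. Epha2, an ephrin-A receptor, stood at 110 and 204 CPM (0.89, 0.82 to 0.95), and all 3 Efnb ligands lay above 0, with Efnb1 at 0.90 (0.75 to 1.04) and Efnb2 at 0.55 (0.49 to 0.62).

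Sema5a, which carries thrombospondin repeats, stood at 39.2 CPM in untreated and 17.0 CPM in control siRNA PDX CAFs, a log2 ratio of -1.20 (-1.37 to -1.04). Ephb6, an Eph receptor without kinase activity, stood at 9.91 and 4.39 CPM (-1.17, -1.51 to -0.85). The other members over 2-fold lower were under 3 CPM in both libraries, namely Sema3d at -2.17 (-3.09 to -1.40), Epha7 at -1.72 (-2.58 to -0.98) and Robo1 at -1.65 (-2.49 to -0.92). The intervals of Sema3d and Sema5a lay wholly beyond 2-fold. Both Slit genes compared were lower, Slit2 at -0.76 (-0.86 to -0.67) and Slit3 at -0.65 (-0.78 to -0.52), and of 7 class 3 semaphorins 6 lay below 0. Smooth muscle genes differed between the same libraries, with Acta2 at 1502 and 4812 CPM and 2 of 10 fibroblast markers compared over 2-fold higher. The 8 pericyte markers summed to 37.5 and 64.5 CPM, with Kcnj8, Abcc9 and Higd1b at 0 in both. The 10 skeletal muscle markers summed to 7.29 and 36.1 CPM, with 1 of 2 compared over 2-fold higher and Myog, Myf5, Ckm, Mymk and Actn2 at 0 in both. Acta1 made most of both sums (6.44 and 34.9 CPM). Their part was not tested.

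**Figure D3:**
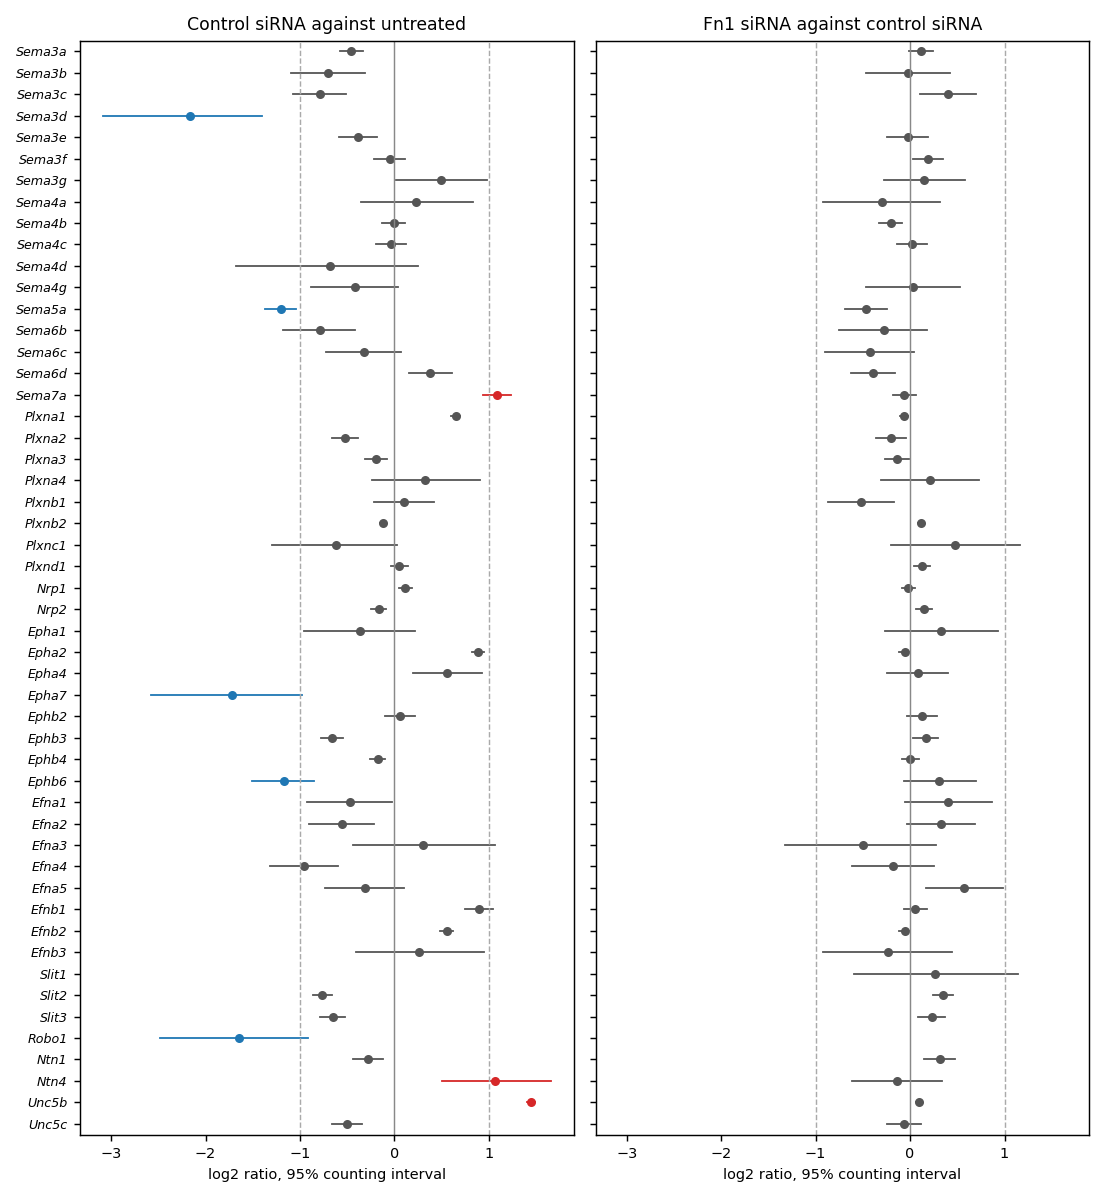
Log2 ratios with 95% counting intervals for control siRNA against untreated PDX CAFs (left, 50 genes compared) and Fn1 siRNA against control siRNA PDX CAFs (right, 47 genes compared), with dashed lines at 2-fold. Left, Unc5b, Sema7a and Ntn4 (red) lie above 1 and 5 genes (blue) below -1, and right, every gene lies within 2-fold; the panels share the control siRNA library.

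More guidance genes were over 2-fold apart between CAFs of different origin than in the other 3 comparisons. The comparison of Cre- control with untreated PDX CAFs sets side by side 2 cultures without siRNA or Cre. They differ in host strain and genotype, host irradiation and bone marrow graft, tumor, graft site, tamoxifen and culture, and these cannot be told apart. Host sex may differ too, since the PDX hosts were female and the methods name both sexes for the transgenic hosts. The sex of the Cre- control host is not stated. This comparison shares a library with each of the knockout and control siRNA comparisons. Of 52 members compared, 17 were over 2-fold higher in Cre- control CAFs and 9 lower, or 32.7% and 17.3%, where 10.8% of all 13482 genes compared were over 2-fold higher and 8.38% lower. The median log2 ratio was 0.49 for members and -0.030 for all genes. Of the members compared, 33 lay above 0 and 19 below. By family, 5 of 5 Efna, 2 of 3 Efnb, 2 of 4 Epha and 4 of 5 Ephb genes lay above 0. So did 5 of 8 Plxn, 1 of 2 Nrp, 2 of 2 Slit, 2 of 2 Ntn and 2 of 3 Unc5 genes, and Robo1. Of semaphorins, 4 of 7 class 3, 1 of 5 class 4 and 2 of 5 class 5 to 7 genes did. The share of all genes above 0 is not given here.

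The members farthest apart were receptors with no or almost no counts in PDX CAFs. Ephb1 (ENSMUSG00000032537, chromosome 9 from 101922128 to 102354693), a receptor of ephrin-B ligands, had no count in the 3 PDX libraries and stood at 3.79 CPM in Cre- control and 6.59 CPM in myosin IIA KO CAFs. Against the 3 counts that a count of 0 allows in the untreated library, this was at least 29.8-fold higher in Cre- control CAFs. Unc5a, a second netrin receptor, had 2, 0 and 1 counts in the untreated, control siRNA and Fn1 siRNA libraries and stood at 4.25 CPM in Cre- control and 5.43 CPM in KO CAFs, a log2 ratio of 5.35 (3.76 to 8.71) against untreated. The spans of these 2 genes overlap other genes, but Unc5a shares 0.816% of its exon bases with Hk3, which stood at 0 to 0.0385 CPM, and Ephb1 shares 2.17% with Gm26846, which had no count in any library.

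Ntn4 and Plxna4 were also low in all PDX libraries. Ntn4 stood at 1.61 CPM in untreated, 3.39 CPM in control siRNA and 3.11 CPM in Fn1 siRNA PDX CAFs, below both transgenic libraries, with a log2 ratio of 4.41 (3.96 to 4.94) in Cre- control against untreated. Plxna4 stood at 1.99, 2.50 and 2.93 CPM in the same libraries, with a log2 ratio of 2.75 (2.32 to 3.24). Efnb1, an X-linked ephrin-B ligand that sets tissue boundaries, stood at 24.2, 45.1, 47.4, 145 and 141 CPM in untreated, control siRNA, Fn1 siRNA, Cre- control and KO CAFs, a log2 ratio of 2.58 (2.45 to 2.71). Slit3 had a log2 ratio of 2.35 (2.26 to 2.45) and Epha4, which binds both ephrin classes, one of 2.05 (1.74 to 2.37). The remaining members over 2-fold higher, at log2 ratios of 1.07 to 1.46, were Sema6c, Efna1, Plxnc1, Plxnb1, Sema3c, Plxnd1, Robo1, Ephb2, Unc5b and Ephb3.

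In the other direction, Epha2 stood at 110, 204 and 198 CPM in untreated, control siRNA and Fn1 siRNA PDX CAFs and at 25.8 and 22.5 CPM in Cre- control and KO CAFs, a log2 ratio of -2.10 (-2.22 to -1.98) in Cre- control against untreated. Sema3a stood in the same order at 52.4, 38.1, 41.7, 12.3 and 5.61 CPM (-2.09, -2.27 to -1.91), and Sema7a at 21.9, 46.4, 44.9, 5.59 and 4.78 CPM (-1.97, -2.25 to -1.70). Ephb6 stood at 9.91, 4.39, 5.50, 0.727 and 0.941 CPM (-3.73, -4.53 to -3.09). For each of these 4 genes the libraries of the 2 origins did not overlap. Unc5c, Sema4a, Sema4b, Sema6b and Sema5a were the other members over 2-fold lower, at log2 ratios of -1.58 to -1.09. The A-type receptors differed in opposite directions, Epha2 being higher in PDX and Epha4 in transgenic CAFs.

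Over all libraries, 13 of 53 members were over 2-fold higher in both transgenic libraries than in all 3 PDX libraries, where 6.98% of all 13963 genes compared were, and 4 were over 2-fold lower, where 5.08% of all genes were. The 13 were Ephb1, Unc5a, Slit3, Plxna4, Ntn4, Efnb1, Sema6c, Sema3c, Epha4, Plxnb1, Robo1, Efna1 and Plxnd1, and the 4 were Ephb6, Epha2, Sema7a and Sema3a. Libraries of 1 origin differ in treatment and are not replicates, so this is a description. Without the 2-fold limit, 29 members did not overlap and were higher in transgenic CAFs, and 11 did not overlap and were lower, where 32.03% and 34.82% of all genes did so. Of 12 fibroblast markers, 8 were over 2-fold higher in Cre- control than in untreated PDX CAFs and 1 lower. Of 8 pericyte markers 4 were over 2-fold higher, and the 8 summed to 37.5 to 65.9 CPM in PDX and 174 to 175 CPM in transgenic CAFs, with Kcnj8 and Higd1b at 0 in all libraries. Of 10 neuronal and glial markers 3 were over 2-fold higher, and the 10 summed to 17.8 to 21.1 CPM and 48.1 to 52.1 CPM, most of it from Tubb3. Of 10 skeletal muscle markers 3 were over 2-fold higher, and the 10 summed to 7.29 to 41.3 CPM and 37.4 to 88.3 CPM, with Myog, Myf5, Ckm and Mymk at 0 in all libraries. Most of each sum was Acta1, at 6.44 to 39.8 CPM in PDX and 32.7 to 85.4 CPM in transgenic CAFs. The 9 adipocyte markers summed to 423 to 568 CPM in PDX, where Adipoq, Lep and Retn were at 0, and 1106 to 3824 CPM in transgenic CAFs, and 7 of the 9 were over 2-fold higher in Cre- control than in untreated PDX CAFs. Their part in the guidance gene differences was not tested.

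**Figure D4:**
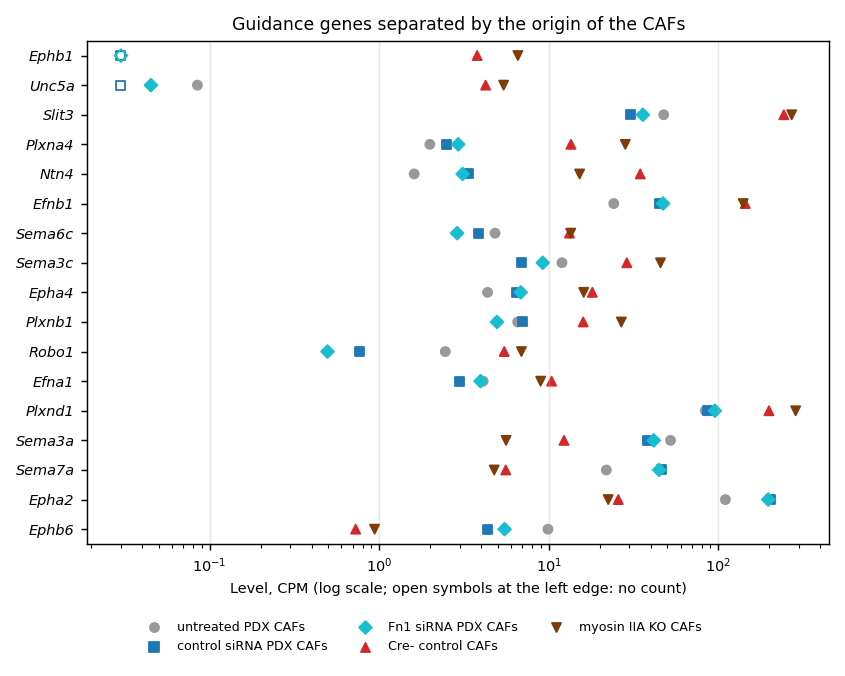
Level in CPM on a log axis of the 17 guidance genes over 2-fold apart between all libraries of the 2 origins, with 1 symbol per library and open symbols at the left edge for a count of 0. The 2 transgenic libraries (triangles) lie right of the 3 PDX libraries for the upper 13 genes, from Ephb1 to Plxnd1, and left of them for Sema3a, Sema7a, Epha2 and Ephb6.

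Genes that work with the guidance receptors were counted in the same way, from a list of 112 co-receptors, other ligands and signalling partners. In the knockout comparison, 1 of 84 compared was over 2-fold higher and 1 lower, beside 3.28% and 1.69% of all genes. They were Draxin, a secreted guidance protein that binds Dcc (5.86 and 12.4 CPM in Cre- control and KO CAFs, log2 ratio 1.08), and Ntrk3, the neurotrophin 3 receptor (7.58 and 0.398 CPM, log2 ratio -4.19). In the knockdown comparison none of 91 was, beside 0.525% and 0.37% of all genes. With control siRNA against untreated, 1 of 92 was higher, the plexin-binding GTPase gene Rnd1 (38.5 and 95.8 CPM, log2 ratio 1.32), and 5 were lower, with log2 ratios of -1.11 to -1.30 (L1cam, Rnd2, Sh2d3c, Ablim1 and Elmo1), beside 2.97% and 2.73% of all genes. In Cre- control against untreated PDX CAFs, 10 of 93 were higher and 14 lower, beside 10.8% and 8.38% of all genes. The median log2 ratios of the list were 1.7e-05, -0.021, 0.064 and -0.048 in these 4 comparisons.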

How the data were processed

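The authors deposited raw counts per gene for 5 libraries in a single table, with gene coordinates and a gene length, which was used for levels per kilobase. Libraries were made and sequenced by Novogene on an Illumina HiSeq sequencer. The build is mm10 per the submitters' processing notes. Aligner, counting tool and strand setting: not given in the sources used here. Rows without a gene name (104, with 0.0422 to 0.0551% of counts) were left out. All 67 members had the same coordinates in GENCODE M21.

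TMM scaling (edgeR 4.0.16, R 4.3.3) used the 2 libraries of a comparison for its ratios and all 5 for CPM. Ratios had 0.5 counts added in proportion to library size and were taken for genes that reached 1 CPM in either library. The 95% intervals are exact conditional binomial for ratios and exact Poisson for levels. Python 3.11.15, pandas 2.3.3 and scipy 1.17.1 were used, and the ratios were tested on simulated data. Other settings tried were library totals, upper-quartile scaling, size factors of DESeq2 1.42.0, TMM over all 5 libraries, 5 counts added, other filters and whole intervals beyond 2-fold. Named members were up to 3 per family with the highest level per kilobase, and those at 5 CPM or more and over 2-fold in a comparison (for origin, the 10 farthest each way). The remaining members over 2-fold, and those quoted beneath 2-fold, were named after their values were seen. Members and lists were chosen with earlier results of these data known.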

Additional observations from a re-analysis of the deposited data

How the results depend on the processing

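The counts of members past 2-fold moved with the filter on low counts and with the rule for passing 2-fold. Without a filter on low counts, 5 members were higher and 5 lower in the knockout, 4 higher and 1 lower in the knockdown, and 5 higher and 9 lower with control siRNA against untreated. With a filter of 10 CPM, 1 member was higher in the knockout and 1 lower with control siRNA. With the whole counting interval required beyond 2-fold, 0 were higher in the knockout, and 1 was higher and 2 were lower with control siRNA. With a threshold of 5 CPM in place of 1 CPM, 33 members were expressed in untreated, 29 in control siRNA and 31 in Fn1 siRNA PDX CAFs. Counts by origin stayed within 1.5 times, and the 26 ratios of named members that were past 2-fold stayed past it in the same direction in all 130 recomputed values (4 other scalings and 5 added counts). No paired analysis was possible because each condition has 1 library, and no library could be left out. The side of 0 on which ratios near 0 lay depends on the scaling. Depth limits the members with few counts, and the spread between like cultures was not measured.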
